A study of Bos taurus with 9 samples.

Results

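The miR-30 family was followed across bovine antral follicle growth in extracellular vesicles (EVs), the membrane-bound particles that cells release into follicular fluid. Its members here are the loci listed in the study's table of known and homologous miRNA under the names bta-miR-30a to bta-miR-30f, with any arm suffix and every genomic copy. This gave 6 loci of 101889 deposited loci and of 249 known and homologous miRNA loci. Small RNA was sequenced from 9 libraries, 3 per follicle size, from cow ovaries obtained at an abattoir. Follicles called small measured 3–5 mm across, those called medium 6–9 mm, and the large ones more than 9 mm. Each library came from EVs of fluid pooled over many follicles of 1 size, so a library is an average over animals and over healthy and atretic follicles, and no treatment was applied to any group.

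MiRNAs are short RNAs that guide Argonaute proteins to partly complementary messenger RNAs, and the bases near the 5′ end (the seed) set most of the target choice. The miR-30 members share a seed and differ mainly towards the 3′ end. They are conserved among vertebrates, are expressed in many tissues, and are known for restraining epithelial-mesenchymal transition, autophagy and fibrosis through targets such as SNAI1, BECN1 and CTGF. In mammals the family is made from a few small clusters, in which a pair of members is often transcribed together, and each hairpin can give a 5p and a 3p product.

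The 6 loci formed 3 pairs on the UMD3.1 assembly. On the plus strand of chromosome 14, bta-miR-30d (8080297 to 8080320) and bta-miR-30b-5p (8084737 to 8084758) were 4416 bases apart. On the minus strand of chromosome 3, bta-miR-30c (106059414 to 106059437) and bta-miR-30e-5p (106062544 to 106062567) were 3106 bases apart. On the minus strand of chromosome 9, bta-miR-30f (10730976 to 10730999) and bta-miR-30a-5p (10768323 to 10768346) were 37323 bases apart. All 6 names matched a RefSeq miRNA gene of the ARS-UCD2.0 assembly, in which the gene NFYC, coding for a subunit of the transcription factor NF-Y, spans both MIR30C and MIR30E. In that assembly LOC132346186 spans MIR30A, and no listed gene spans MIR30B, MIR30D or MIR30F. The bta-miR-30b-5p locus was 22 bases long and the others were 24 bases long, and the 6 loci held from 2859 (bta-miR-30f) to 192160 (bta-miR-30a-5p) reads over the 9 libraries.

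Summed counts over all deposited loci ranged from 8941598 to 14664460 per library, but known and homologous miRNA took only 146617 to 3394554 of them. Their share of the deposited counts was 23.1%, 14.1% and 26.9% in small libraries 1, 2 and 4, 3.88%, 3.75% and 11.2% in medium libraries 5, 6 and 8, and 1.58%, 1.43% and 5.65% in large libraries 10, 11 and 12. Libraries 8 and 12 stood apart from the others of their size, whereas library 4 was close to library 1 and small library 2 was the lowest. Results are also given without the highest library of each size (4, 8 and 12). Fluid of every size came from each collection of ovaries, but the labels do not tie libraries to collections, so differences between collections could not be separated from other spread within a size. Both arms of miR-202, which marks gonadal cells, were measured, and they summed to normalized counts (defined below) of 18462 ± 880 for small, 20088 ± 5700 for medium and 19147 ± 13103 for large follicles (SD, n = 3 each). The 7 blood cell miRNAs listed as markers summed to 3225 ± 1225, 3516 ± 919 and 13613 ± 5778 (SD, n = 3 each) in the same order, and none was at 0 in all libraries. Of the 7, 4 were called higher in large versus small follicles, against 17.7% of all 249 loci. bta-miR-486 alone held 6547, 8547 and 12641 in large libraries 10, 11 and 12, of sums from 8388 to 19818. A list of 5 epithelial miRNAs summed to 629 ± 98.0, 1284 ± 835 and 500.1 ± 58.0 (SD, n = 3 each). Of these 5, 1 was called lower and 0 higher, against 24.5% lower and 17.7% higher of all 249. The part of blood cell or epithelial RNA in the miR-30 results was not tested. With bulk EV RNA, fewer vesicles that carry a miRNA and less of it per vesicle cannot be told apart.

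Reads on the 6 miR-30 loci made up 5.06% ± 1.54 of known and homologous miRNA counts for small, 6.15% ± 0.420 for medium and 8.19% ± 1.71 for large follicles (SD, n = 3 each). The values were 3.99%, 6.83% and 4.37% in small libraries 1, 2 and 4, between 5.76% and 6.59% in medium libraries, and 9.72%, 8.51% and 6.35% in large libraries 10, 11 and 12. The small and large libraries overlapped, because small library 2 was above large library 12. Wilson 95% intervals of these shares were at most 0.149 percentage points to either side and cover counting error only. Taken instead as a share of all deposited counts, the same reads were lower in every large library than in every small library, at 1.02% ± 0.135 for small, 0.385% ± 0.260 for medium and 0.212% ± 0.128 for large follicles (SD, n = 3 each). As a share of the counts on both miRNA tables, predicted miRNAs included, the means were 4.84% ± 1.41 for small, 4.65% ± 0.769 for medium and 4.16% ± 0.736 for large follicles (SD, n = 3 each), which differed by less than their spread. The mean was thus higher for large than for small follicles only relative to known and homologous miRNA. No test was made on these sums.

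The make-up of the family's reads differed between sizes. In small follicle EVs, bta-miR-30a-5p was the most abundant member with 39.0% ± 1.55 of the family's reads, followed by bta-miR-30e-5p with 29.8% ± 6.45 and bta-miR-30d with 23.8% ± 4.21 (SD, n = 3 each). In large follicle EVs, bta-miR-30d led with 48.7% ± 11.1, bta-miR-30a-5p had 27.1% ± 7.63 and bta-miR-30e-5p had 11.4% ± 4.36 (SD, n = 3 each). The share of bta-miR-30d was 21.0%, 21.8% and 28.6% in small, 29.6%, 28.9% and 45.7% in medium and 38.7%, 46.6% and 60.7% in large libraries, so small and large did not overlap. The share of bta-miR-30c was 5.69% ± 0.771 in small and 9.73% ± 1.12 in large libraries, and that of bta-miR-30f was 0.305% ± 0.108 and 1.25% ± 0.381 (SD, n = 3 each).

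**Figure D1:**
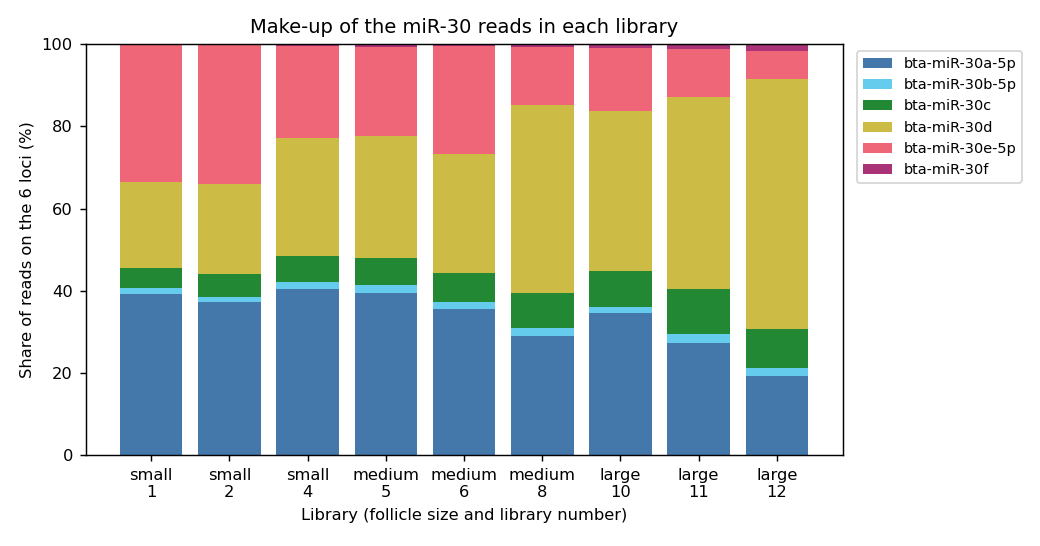
Stacked bars give the share (%) of reads on the 6 miR-30 loci that fell on each locus, with 1 bar per library, ordered by follicle size. The bta-miR-30d part widens from 21.0% in small library 1 to 60.7% in large library 12, while the bta-miR-30e-5p part narrows from 33.2% to 6.84%.

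Counts were next compared as normalized counts, which were scaled by the TMM method of edgeR within the 249 known and homologous miRNA loci and are given as CPM, that is relative to the total of this set. In large versus small follicles, 4 of the 6 loci, bta-miR-30b-5p, bta-miR-30c, bta-miR-30d and bta-miR-30f, were called higher (quasi-likelihood test over all 249 loci, false discovery rate, FDR, under 0.05), and 0 were called lower. The remaining bta-miR-30a-5p and bta-miR-30e-5p had FDRs of 0.786 and 0.187. Of all 249 loci, 42.2% were called in this comparison, 17.7% higher and 24.5% lower. The median log2 fold change was 1.25 over the 6 loci and -0.18 over all 249. These directions hold only relative to the 249 known and homologous loci. With TMM over the loci of both miRNA tables, which adds 455 predicted miRNAs, the log2 fold changes were -2.39 for bta-miR-30b-5p, -2.08 for bta-miR-30c, -1.68 for bta-miR-30d and -0.67 for bta-miR-30f. With this scaling 4 of the 6 loci were called lower and 0 higher, against 217 lower and 1 higher of all 249. The 6 include bta-miR-30a-5p and bta-miR-30e-5p, so the 4 called lower need not be the 4 just listed. The log2 fold changes of all 6 loci were negative when libraries were scaled by all deposited counts, as described below. With the scaling within the 249 loci, an unadjusted p under 0.05 was found for the 4 loci called higher, against 50.2% of the 249. The exact test of edgeR called 4 of the 6, against 46.2%. Without libraries 4, 8 and 12, 4 of the 6 loci were again called higher, against 46 of all 249.

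bta-miR-30d, a member that has been studied in EVs of the uterine fluid, was the most abundant of the loci that rose. Its normalized count was 8744, 15942 and 12444 in small libraries 1, 2 and 4, 14621, 19009 and 28085 in medium libraries 5, 6 and 8, and 32363, 41341 and 45036 in large libraries 10, 11 and 12. All large libraries were above all others, and the small and medium libraries overlapped. The mean rose from 12377 ± 3599 (SD, n = 3) in small to 39580.1 ± 6518 (SD, n = 3) in large follicle EVs, which is 3.20-fold (log2 fold change 1.68 with a standard error of 0.37, quasi-likelihood FDR = 0.00518). Among the 249 loci, it ranked 24 by mean level for small, 12 for medium and 6 for large follicles. Its cluster partner bta-miR-30b-5p was less abundant, with 572, 916 and 717 in small, 867, 1037 and 1130.0 in medium and 1322, 1861 and 1475 in large libraries. The large libraries again did not overlap with the rest. bta-miR-30b-5p was 2.11-fold higher in large versus small follicle EVs (log2 fold change 1.08 with a standard error of 0.31, quasi-likelihood FDR = 0.0179), a call that was lost without small library 1 (FDR = 0.0820) or without large library 11 (FDR = 0.0720).

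bta-miR-30c, known as a regulator of connective tissue growth factor and of lipoprotein assembly, had normalized counts of 2089, 4055 and 2836 in small, 3344, 4766 and 5275 in medium and 7289, 9698 and 7059 in large libraries. Every large library was above every medium and small one. It was 2.68-fold higher in large versus small follicle EVs (log2 fold change 1.42 with a standard error of 0.35, quasi-likelihood FDR = 0.00805). The neighbouring bta-miR-30e-5p did not share this rise, with 13840.2, 24764 and 9716 in small, 10672, 17275 and 8679 in medium and 12994, 10351 and 5073 in large libraries. The 3 sizes overlapped, and the log2 fold change from small to large was -0.77 (standard error 0.46, quasi-likelihood FDR = 0.187).

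bta-miR-30f was the least abundant member and had the largest fold change of the 6. Its normalized count was 101, 178 and 187 in small, 350.2, 262 and 452 in medium and 719, 1123 and 1203 in large libraries. None of the 3 sizes overlapped for this locus. It was 6.55-fold higher in large versus small follicle EVs (log2 fold change 2.71 with a standard error of 0.39, quasi-likelihood FDR = 0.000598), the 9th largest log2 fold change of the 249 loci, and it passed in all 9 fits that left out 1 library. bta-miR-30a-5p, on the same strand of chromosome 9 and best known as a repressor of the autophagy gene BECN1, had 16349.5, 27278 and 17539.7 in small, 19542, 23385 and 17816 in medium and 28883, 24276 and 14321 in large libraries. The lowest and the highest of the 9 values were both in large libraries, and large and small follicles differed by 0.14 on the log2 scale (standard error 0.36, quasi-likelihood FDR = 0.786).

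**Figure D2:**
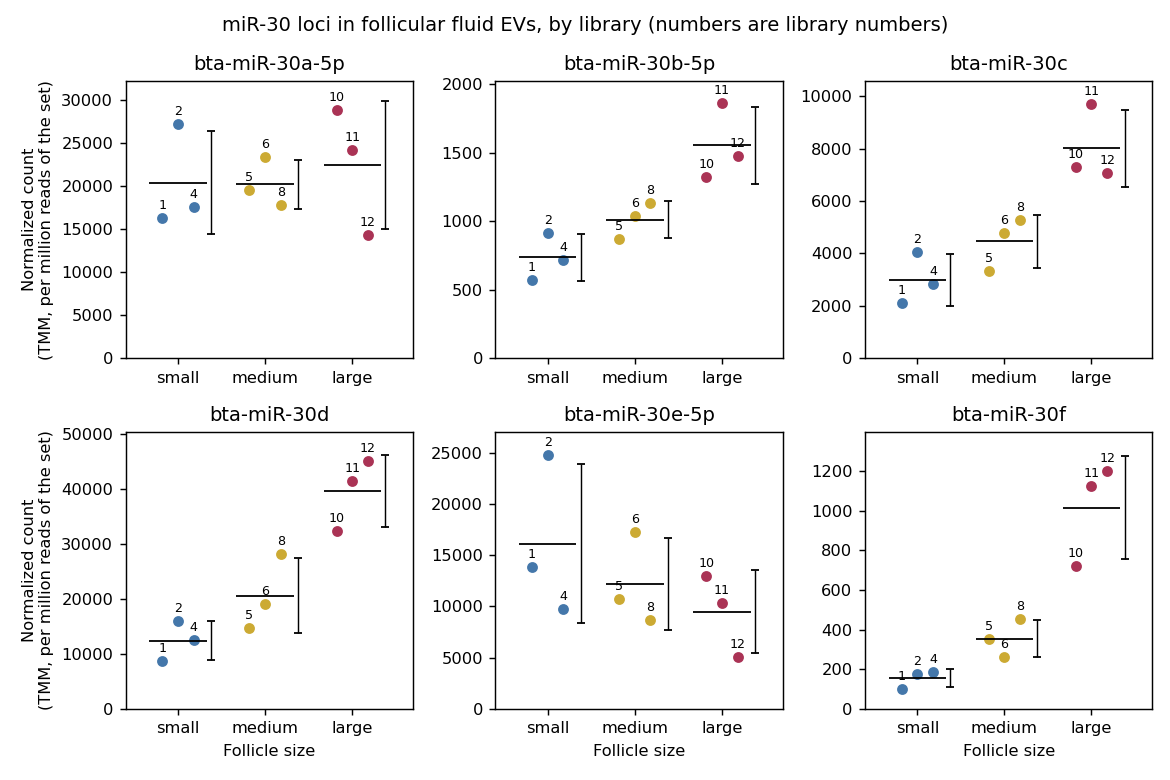
Normalized counts (linear axis, TMM-scaled CPM of known and homologous miRNA) of the 6 loci by follicle size. Points are libraries with their numbers, horizontal lines are means and vertical bars are ± 1 SD (n = 3). For bta-miR-30b-5p, 30c, 30d and 30f all large libraries lie above all small ones, and for bta-miR-30a-5p and bta-miR-30e-5p the sizes overlap.

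In medium versus small follicles, 0 of the 6 loci were called by the quasi-likelihood test, as were 0% of the 249 loci, and 1 of the 6 (bta-miR-30f, log2 fold change 1.20, standard error 0.38, FDR = 0.109) had an unadjusted p under 0.05, against 17.7% of the 249. This was also the 1 locus of the 6 at which medium and small libraries did not overlap, against 28.5%. DESeq2 called that 1 locus, with an adjusted p of 0.0094. The share of the 249 loci that DESeq2 called in this comparison is not given here, so that call has no background beside it. The exact test of edgeR called 0 of the 6, against 6.43% of the 249. In large versus medium follicles, only bta-miR-30f was called of the 6 (log2 fold change 1.52 with a standard error of 0.38, quasi-likelihood FDR = 0.0415), where 10.4% of the 249 loci were called, 5.62% higher and 4.82% lower. The exact test also called 1 of the 6, against 20.9%, and 3 of the 6 (bta-miR-30c, bta-miR-30d and bta-miR-30f) had an unadjusted p under 0.05, against 32.1%. The call of bta-miR-30f was lost in 5 of the 9 fits that left out 1 library (small library 1, medium library 5 or 6, large library 11 or 12), with FDRs from 0.0565 to 0.138. For bta-miR-30b-5p, 30c and 30d, the log2 fold changes in large versus medium follicles were 0.62, 0.84 and 0.94, with quasi-likelihood FDRs of 0.190, 0.112 and 0.0899. Normalized counts did not overlap between large and medium libraries at 4 of the 6 loci, against 36.1% of all 249 loci, and between large and small libraries at 4 of the 6, against 53%.

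By mean level, the order was bta-miR-30a-5p, bta-miR-30e-5p, 30d, 30c, 30b-5p and 30f in small and bta-miR-30d, 30a-5p, bta-miR-30e-5p, 30c, 30b-5p and 30f in large follicle EVs, and dividing by locus length did not alter either order. In every library bta-miR-30c was above bta-miR-30b-5p and bta-miR-30b-5p above bta-miR-30f. Near the top the order was less settled. bta-miR-30a-5p had more reads than bta-miR-30d in 5 of the 9 libraries, and in medium libraries their means differed by less than their spread (20248 ± 2851 and 20572 ± 6867, SD, n = 3). bta-miR-30d had more reads than bta-miR-30e-5p in 7 of the 9 libraries, and bta-miR-30c had more than bta-miR-30e-5p in large library 12 alone.

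The scaling decided the sign of most changes in large versus small follicles. When libraries were scaled to their summed deposited counts, the log2 fold change became -1.15 for bta-miR-30d, -1.53 for bta-miR-30c, -1.86 for bta-miR-30b-5p, -2.94 for bta-miR-30a-5p and -3.83 for bta-miR-30e-5p, while that of bta-miR-30f became -0.15. Under this scaling the median over the 249 loci was -3.06. Of the 6 loci, 3 were called lower (bta-miR-30a-5p, 30b-5p and bta-miR-30e-5p) and 0 higher, against 191 lower and 1 higher of all 249. As CPM of all deposited counts, bta-miR-30f stood at 32.1 ± 15.9 for small, 25.3 ± 21.9 for medium and 29.0 ± 25.3 for large follicles (SD, n = 3 each), which differed by less than their spread. On the same scale bta-miR-30e-5p stood at 2982 ± 322, 699.6 ± 247 and 209 ± 57.7 (SD, n = 3 each), and its 3 sizes did not overlap. Those of bta-miR-30a-5p, at 3982 ± 656, 1249 ± 639 and 519 ± 180 (SD, n = 3 each), did not overlap either. The share of all 249 loci without overlap on this scale is not given here. A change of scaling shifts all loci by about the same amount, so it bears on the sign of a change and not on the order of the loci.

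**Figure D3:**
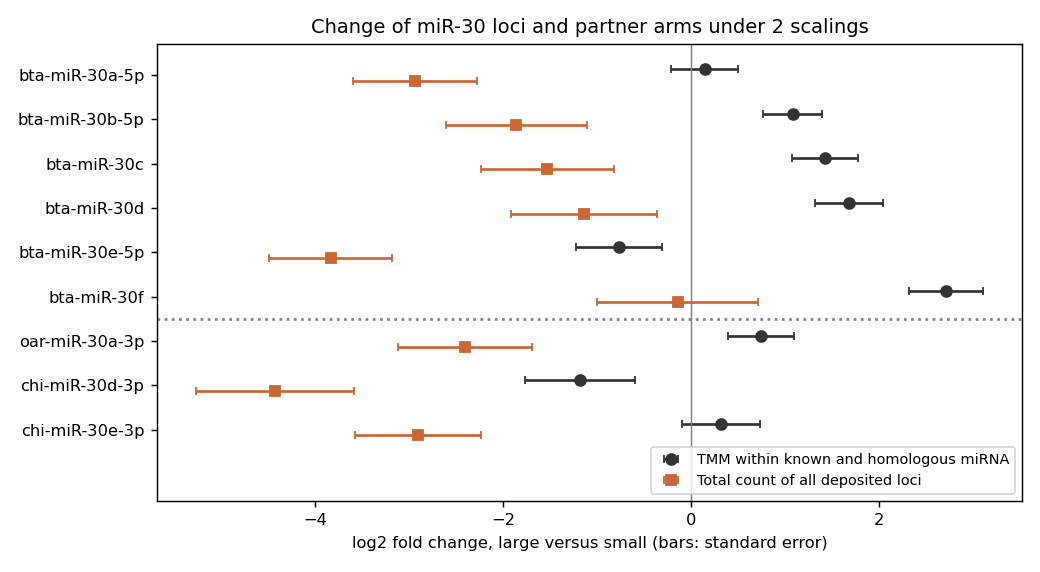
Log2 fold changes (± standard error) in large versus small follicle EVs for the 6 loci and, below the dotted line, the 3 partner arms. Circles use TMM within known and homologous miRNA and squares use the total count of all deposited loci. Each square lies left of its circle, by a similar distance for all loci.

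Because a ratio of 2 loci within 1 library does not depend on the scaling, pairs of loci were compared directly. There were 9 ratios, for 3 pairs of chromosome neighbours, 3 pairs of arms from 1 hairpin and 3 pairs of members whose mature sequences are close to each other, and several ratios share a locus. Each was tested for a trend of its log2 value across the ordered sizes, with an exact permutation test over the 1680 arrangements of the libraries (two-sided, smallest p possible 0.00119), which treats the libraries as unpaired, with Benjamini-Hochberg adjustment over the 9. All except the arms of miR-30a, 8 of the 9, had an adjusted p under 0.05. Ratios of other pairs among the 249 loci were not tested, so no share stands beside this count. Of the 249 single loci, 42.2% were called in large versus small follicles and 53% did not overlap. A ratio of a called to an uncalled locus repeats in part the difference by which the first was called. A one-way F statistic over the 3 sizes, in place of the trend, gave adjusted permutation p-values from 0.0589 to 0.0683 for the 8 ratios. Without libraries 4, 8 and 12, the trends of the 8 kept their direction with adjusted permutation p-values of at least 0.05 and at most 0.075, in a design whose smallest unadjusted p is 0.0222.

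The ratios of chromosome neighbours differed between small and large libraries, least so on chromosome 14. On chromosome 9, there were 0.00617, 0.00653 and 0.0106 reads of bta-miR-30f per read of bta-miR-30a-5p in small, 0.0179, 0.0112 and 0.0254 in medium and 0.0249, 0.0462 and 0.0840 in large libraries. The ratio was 6.09-fold higher in large than in small libraries (geometric means, exact permutation p = 0.00238, adjusted p = 0.0143). On chromosome 3, reads of bta-miR-30c per read of bta-miR-30e-5p numbered 0.151, 0.164 and 0.292 in small, 0.313, 0.276 and 0.608 in medium and 0.561, 0.937 and 1.39 in large libraries. This ratio was 4.66-fold higher in large than in small libraries (exact permutation p = 0.00595, adjusted p = 0.0143). Both pairs changed so that the member called higher gained on a partner that was not called. On chromosome 14, where both members were called higher, the ratio of bta-miR-30d to bta-miR-30b-5p was 15.3, 17.4 and 17.3 in small and 24.5, 22.2 and 30.5 in large libraries, which is a 1.53-fold difference (exact permutation p = 0.0155, adjusted p = 0.0174). The small and large libraries did not overlap in any of these 3 ratios.

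Members that are close in sequence diverged as well. bta-miR-30d had 0.535, 0.584 and 0.709 reads per read of bta-miR-30a-5p in small, 0.748, 0.813 and 1.58 in medium and 1.12, 1.70 and 3.14 in large libraries. bta-miR-30d was thus the rarer of the pair in every small library and the more frequent in every large library (3.00-fold change of the ratio, exact permutation p = 0.00833, adjusted p = 0.0143). The ratio of bta-miR-30e-5p to bta-miR-30a-5p went the other way, with 0.847, 0.908 and 0.554 in small and 0.450, 0.426 and 0.354 in large libraries, and was 1.84-fold lower in large libraries (exact permutation p = 0.00952, adjusted p = 0.0143). bta-miR-30f gained on bta-miR-30c, from 0.0483, 0.0439 and 0.0658 in small to 0.0987, 0.116 and 0.170 in large libraries, a 2.41-fold difference (exact permutation p = 0.00714, adjusted p = 0.0143). The study does not state how reads that fit several loci were counted, so reads of near-identical members could have been assigned to each other, and counts of single members are uncertain to that extent.

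The partner 3p arms of 3 hairpins are in the same table under names taken from sheep or goat, as oar-miR-30a-3p, chi-miR-30d-3p and chi-miR-30e-3p. None of these was called between any 2 sizes. In large versus small follicles their log2 fold changes were 0.74 for oar-miR-30a-3p (quasi-likelihood FDR = 0.105), -1.18 for chi-miR-30d-3p (FDR = 0.123) and 0.32 for chi-miR-30e-3p (FDR = 0.545). The arms of miR-30d moved apart. The 5p arm had 39.4, 131 and 140.2 reads per read of the 3p arm in small, 108, 128 and 397 in medium and 305, 582 and 1819 in large libraries, a 7.64-fold difference between large and small libraries (exact permutation p = 0.0143, adjusted p = 0.0174). The 3p arm held only 10 to 19 reads in each large library, and a permutation test on ranks gave an adjusted p of 0.0683 for this ratio. For miR-30e, the ratio of 5p to 3p was 7.77, 13.7 and 9.62 in small, 7.72, 10.4 and 6.72 in medium and 5.10, 4.42 and 5.95 in large libraries, which is 1.97-fold lower in large libraries (exact permutation p = 0.00952, adjusted p = 0.0143). For miR-30a, the ratio was 11.7, 26.4 and 22.5 in small and 13.7, 11.5 and 12.4 in large libraries, and the sizes overlapped through small library 1 (1.53-fold lower, exact permutation p = 0.110, adjusted p = 0.110). Without that library the adjusted p was 0.0214. In all 9 libraries the 5p arm had more reads than the 3p arm at each of the 3 hairpins.

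**Figure D4:**
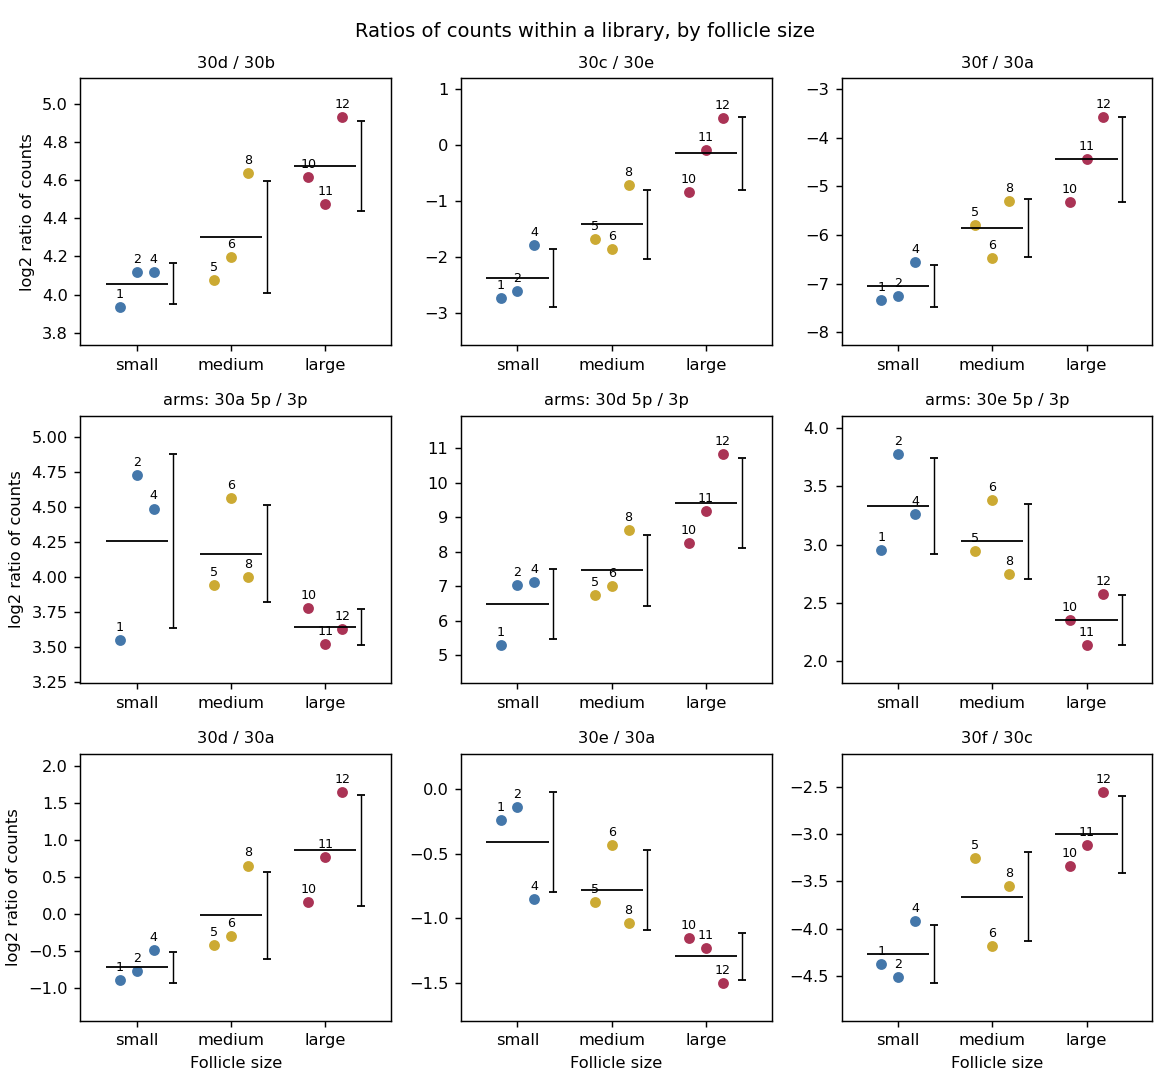
Log2 ratios of counts within a library for 9 pairs of loci, by follicle size. The top row shows chromosome neighbours, the middle row the arms of 1 hairpin and the bottom row members of close sequence, with library numbers at the points, lines at the means and bars of ± 1 SD (n = 3). Small and large libraries do not overlap in any panel except that of the miR-30a arms.

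Likeness between loci is given as a description. Pearson's r of log2 normalized counts over the 9 libraries was from 0.92 to 0.99 for the 6 pairs among bta-miR-30b-5p, 30c, 30d and 30f. It was 0.71 for bta-miR-30a-5p with bta-miR-30e-5p, and from -0.61 to 0.36 for pairs across these groups. Among the other known and homologous loci, bta-miR-204 and bta-miR-125a were in the 3 most alike for each of the 4 loci that rose, with r from 0.96 to 0.99. The loci most like bta-miR-30a-5p were a pair of bta-let-7f loci and bta-miR-98, with r from 0.89 to 0.91, and those most like bta-miR-30e-5p were bta-miR-6119-5p, bta-miR-17-3p and bta-miR-148b, with r from 0.92 to 0.95. These values span libraries of 3 sizes that share 1 normalization and include the difference between sizes by which the 4 loci were called, so high values among them follow in part from that choice.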

How the data were processed

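Small RNA of EVs was sequenced in 9 libraries (3 sizes with 3 pools each). The authors removed 3′ adapters, mapped reads with bwa (BWA 0.7.5a in the submitters' processing notes) to UMD3.1, defined loci on the merged libraries and deposited, per locus and library, raw counts that were not normalized. Follicle size came from the sample labels. The study's collections each supplied all 3 sizes, but the labels do not tie libraries to collections, so no pairing was used, and p-values measure the spread between pools treated as independent. A check for libraries deposited more than once found none.

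The 249 known and homologous miRNA loci were taken by locus identifier from the study's list. In R 4.3.3 with edgeR 4.0.16 (limma 3.58.1), they were scaled by TMM without a filter, and a model of the 3 sizes was fitted to the 9 libraries with the quasi-likelihood test (two-sided, Benjamini-Hochberg over the 249 loci). Standard errors are the log2 fold change divided by the square root of F. On simulated counts for large versus small follicles (249 loci), the test called 42 of 50 loci set to a log2 change of 2 and 1 other, and 2 of 50 set to a log2 change of 1 and 0 others, so smaller changes are often missed. Ratios were tested in Python 3.11.15 with scipy 1.17.1 and drawn with matplotlib 3.10.9. DESeq2 1.42.0, edgeR's exact test, other scalings, a low-count filter and leaving out libraries were alternatives.

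The loci named are the 6 members, their partner arms, the 3 loci most correlated with each member, marker lists, and other deposited loci within 100 bases of a member. The members, lists and tests were chosen with earlier results of these data known. The study used edgeR's exact test, which was kept as an alternative. The mature sequences are not printed here.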

Additional observations from a re-analysis of the deposited data

Results flagged for a closer look

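Beside bta-miR-30c and bta-miR-30f, the deposited table holds a locus each that is not in the study's miRNA tables and entered no comparison above. Both are 22 bases long, lie on the same strand within 100 bases of the member, on its 3′ side, and were noted because their total counts were above the limit that a count of 0 allows (3 counts). The locus beside bta-miR-30c (chromosome 3, 106059377 to 106059398, UMD3.1) held 466 reads over the 9 libraries, at 95.7 ± 40.1 per library for small, 37.7 ± 30.6 for medium and 22 ± 11 for large follicles (SD, n = 3 each). These counts are not scaled between libraries. Over all libraries, bta-miR-30c had 77.7 reads for each read of this locus. By library it had 47.8 to 108 in small, 85.8 to 99.6 in medium and 62.0 to 121 in large libraries, so the sizes overlapped. The locus beside bta-miR-30f (chromosome 9, 10730938 to 10730959) held 262 reads, at 27.7 ± 21.5, 30.3 ± 20.3 and 29.3 ± 25.3 per library in the same order (SD, n = 3 each), with only 2 of them in large library 10. Here bta-miR-30f had 10.9 reads for each over all libraries, with 6.31 to 25.65 in small, 4.79 to 13.6 in medium and 4.65 to 64.5 in large libraries. No deposited locus of this kind was found beside bta-miR-30b-5p.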

How the results depend on the processing

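Directions in the fits are relative to the set used for scaling. TMM over all deposited loci, TMM over all miRNA loci of both tables and the total of all deposited loci gave, in that order, log2 fold changes in large versus small follicles of -4.62, -3.47 and -2.94 for bta-miR-30a-5p, -3.51, -2.39 and -1.86 for bta-miR-30b-5p, -3.18, -2.08 and -1.53 for bta-miR-30c, -2.76, -1.68 and -1.15 for bta-miR-30d, -1.78, -0.67 and -0.15 for bta-miR-30f, -4.64, -3.40 and -2.91 for chi-miR-30e-3p and -4.11, -2.87 and -2.41 for oar-miR-30a-3p, each reversed. In medium versus small follicles they gave -2.08, -1.30 and -1.11 for bta-miR-30b-5p, -1.87, -1.14 and -0.94 for bta-miR-30c, -1.60, -0.90 and -0.71 for bta-miR-30d, -1.28, -0.53 and -0.34 for bta-miR-30f and -2.59, -1.74 and -1.58 for oar-miR-30a-3p. In large versus medium follicles they gave -1.90, -1.58 and -1.27 for bta-miR-30a-5p, -1.43, -1.09 and -0.75 for bta-miR-30b-5p, -1.31, -0.94 and -0.59 for bta-miR-30c, -1.16, -0.79 and -0.43 for bta-miR-30d, -1.85, -1.47 and -1.16 for chi-miR-30e-3p and -1.52, -1.13 and -0.82 for oar-miR-30a-3p. There bta-miR-30f was at -0.51 and -0.14 under both TMM scalings, and at 0.19 with the total. Under these 3 scalings 0 of the 6 loci were called higher in any comparison. Called lower were 5, 4 and 3 of the 6 loci in large versus small and 1, 2 and 1 in medium versus small follicles. For medium versus small follicles the shares of all 249 called are not given here. The median over the 249 loci in large versus small follicles was -4.71, -3.60 and -3.06, against -0.18 in the main analysis. Of the 249, 44 were called higher and 61 lower in the main analysis, against 0 and 232, 1 and 217, and 1 and 191.

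Of the miR-30 members, DESeq2 called 1 locus higher in medium versus small (bta-miR-30f) and 2 in large versus medium follicles (bta-miR-30d and bta-miR-30f). A fit of only the 2 sizes compared called 0 members in large versus medium follicles. Leaving out 1 library gave 0 to 1 there. For these comparisons, the shares of all known and homologous loci called in these alternative fits are not given here. The counts of members called thus have no background beside them. Small log2 fold changes in medium versus small follicles changed sign. That of bta-miR-30a-5p was 0.11 by DESeq2 and with its size factors, 0.12 without TMM, 0.10 in the fit of both sizes alone and 0.073 without libraries 4, 8 and 12. That of chi-miR-30e-3p was 0.032 by DESeq2 and with its size factors, 0.046 without TMM and 0.025 with both sizes alone. With 1 library left out, bta-miR-30a-5p ranged from -0.080 to 0.41 in large versus small, from -0.15 to 0.26 in medium versus small and from -0.070 to 0.39 in large versus medium follicles. In medium versus small follicles the same fits gave -0.74 to 0.052 for bta-miR-30e-5p, -0.49 to 0.16 for chi-miR-30d-3p, -0.21 to 0.046 for chi-miR-30e-3p and -0.022 to 0.31 for oar-miR-30a-3p. A low-count filter removed no locus.

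With the F statistic the ratios have the same slopes per size step on the log2 scale, 0.31 (30d over 30b), 1.11 (30c over 30e), 1.30 (30f over 30a), 1.47 (arms of 30d), -0.49 (arms of 30e), 0.79 (30d over 30a), -0.44 (30e over 30a) and 0.63 (30f over 30c), and none had an adjusted p under 0.05. Ranks gave a rho of 0.69 for the arms of 30d, with an adjusted permutation p of 0.0683. Leaving out libraries 4, 8 and 12, an alternative chosen after seeing the data, gave 0.26, 1.10, 1.21, 1.28, -0.56, 0.65, -0.50 and 0.61 in the order of the 8 slopes above, none with an adjusted p under 0.05. For the arms of 30a, leaving out 1 library gave slopes from -0.48 to -0.21. As a share of all deposited counts, of both miRNA tables and of loci 18 to 30 bases long, the miR-30 reads were 1.02%, 4.84% and 2.19% for small, 0.385%, 4.65% and 1.09% for medium and 0.212%, 4.16% and 0.775% for large follicles, so the mean was higher for large than for small follicles only relative to known and homologous miRNA. The cause of these differences was not tested. No paired analysis was possible because the sizes share no replicate numbers and the labels do not tie libraries to the collections, each of which supplied all 3 sizes.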

Other observations

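In each size, the library with the highest share of known and homologous miRNA (4, 8 and 12) also had the highest ratios of bta-miR-30d to bta-miR-30a-5p, of bta-miR-30c to bta-miR-30e-5p and of bta-miR-30f to bta-miR-30a-5p among the 3 libraries of that size. The first ratio was 0.709 in library 4, 1.58 in library 8 and 3.14 in library 12. The ratio of the miR-30d arms was also highest in these libraries, and that of bta-miR-30e-5p to bta-miR-30a-5p was lowest in them. Other ratios broke the pattern. bta-miR-30f to bta-miR-30c was highest in medium library 5 (0.105, against 0.0856 in library 8). bta-miR-30d to bta-miR-30b-5p was highest in small library 2 (17.39, against 17.34 in library 4). The arms of miR-30a and of miR-30e had their highest ratios in small library 2 and medium library 6.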
